A study of Arabidopsis thaliana with 4 samples.

Results

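Rosette leaves deprived of phosphate were compared directly with rosette leaves deprived of nitrate, using 1 array for each and leaving the full-nutrient array out of the ratio. The 2 arrays were taken from a series of 4, by the written treatment of each sample. Of 3602 genes that the platform annotation names, 89 differed at least 2-fold between these arrays, 51 higher and 38 lower without phosphate than without nitrate. Chitinase, glutaredoxin and beta-glucosidase genes were among the higher ones. The expansin genes EXPA8 and EXPB1 were among the lower ones, EXPB1 close to the lowest signal counted, while the expansin gene EXPA4 was 1.13-fold higher. Class III peroxidase genes stood on both sides. Single genes of other functions were lower too, such as ATG8E of autophagy, GAMMA-VPE of vacuolar proteolysis and AT3G04550 of Rubisco assembly. With the arrays scaled to their control transcripts, only 8 of the 38 lower genes stayed 2-fold lower. AT3G04550 was among these, but EXPA8, EXPB1, ATG8E and GAMMA-VPE were not. The measured values are single-array signals, so no difference was tested and no value has a replicate error.

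The plants were Arabidopsis thaliana of ecotype Col-5, at growth stage 6.10. They stood on agar medium with sucrose until 21 days at a day length of 16 h, then in hydroponics under constant light at 24 °C and 80% humidity, and leaves were taken 28 h after the change of solution. The phosphate-depleted group lacked KH2PO4 and received 0.125 mM extra K2SO4. The nitrate-depleted group lacked calcium nitrate and received 4 mM extra CaSO4. Both solutions therefore held more sulphate than the full one, and the nitrate-free one held the larger addition. The other arrays, from a solution without KH2PO4 and KOH (potassium-depleted, with phosphate given as calcium salt) and from the full solution, are quoted only as context for each gene. No nitrate salt is listed for the full solution, so its nitrate supply is uncertain. The title and source name of the phosphate-depleted sample abbreviate the missing nutrient differently, and the written treatment was followed. The labels name neither the number of plants per sample nor whether they were pooled, and in bulk leaf RNA fewer cells of a type cannot be told apart from less RNA per cell.

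Phosphate and nitrate are macronutrients whose supply plants sense. Phosphate shortage acts through PHR-type transcription factors and is known for phosphatases, phosphate transporters and the replacement of phospholipids by other lipids. Nitrate is itself a signal, read by the NRT1.1 transporter and NLP transcription factors, which drive the genes of nitrate uptake, reduction and redox supply. None of the 37 nitrate uptake and response genes or 25 ammonium assimilation genes that were listed was named by the annotation. Of 51 phosphate starvation genes only LPR1, a ferroxidase gene of root growth on low phosphate, was named, and it lay below the floor on both arrays.

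Signals are linear intensities that the authors had scaled to a common trimmed mean (100.167 on the phosphate and 100.174 on the nitrate array). A signal under 25 was set to 25, and a fold against such a floor is a bound, written as at least that many fold. Of 8247 probe sets, 4019 lay above the floor on the phosphate array and 3946 on the nitrate array, and 3740 lay above it on both. Leaf identity was checked on markers. RCA, the gene of Rubisco activase, had signals of 4481.6 without phosphate and 5340.3 without nitrate, while the antenna protein gene LHCB4.1 read 5936.4 without phosphate and 7096.1 without nitrate. The root gene BGLU21 was at 5.3 without phosphate and 0.8 without nitrate, but at 377.2 on the potassium array, which is used here as context only, and the flower and seed genes AT5G07230 and BAN were below the floor on both arrays.

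The control probe sets, which were left out of the ratios, differed between these arrays too. Of 9 probe sets for the bacterial and phage control transcripts, 8 were dimmer on the phosphate array, with a median log2 ratio of -0.56, or 1.48-fold. The CreX 5′ control had a signal of 1241.8 on the phosphate and 2025.4 on the nitrate array. The 25S rRNA control was at 82.5 on the phosphate and 265.5 on the nitrate array, and the middle GAPDH control at 1707.5 and 1003.2 in that order. The ratio of 3′ to 5′ signal of GAPDH, a measure of RNA integrity, was 1.26 without phosphate and 1.46 without nitrate. It was 2.02 without potassium and 2.36 with full nutrients. The same ratio for ubiquitin ordered the arrays differently, at 2.75 without phosphate and 3.36 without nitrate, with 2.67 without potassium and 3.16 with full nutrients. The part of these controls in the gene ratios was not tested, and scaling to the control transcripts gave a median log2 ratio of 0.49 over the probe sets above the floor on both arrays, against -0.06 as deposited.

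More probe sets were higher than lower on the phosphate array. At 2-fold or more, 186 of 8247 were higher (2.26%) and 98 lower (1.19%). Of the higher ones 32 were bounds, and of the lower ones 8. Among probe sets with 1 named gene, 54 of 3794 (1.42%) were higher and 38 (1.00%) lower, and these stand for the 51 and 38 genes. The higher side also reached further, with 62 of all probe sets at 3-fold or more, against 18 on the lower side. These held 19 named genes against 7, bounds included. Scaled to the control transcripts, 557 probe sets were higher and 21 lower, so that 96.4% of the calls were higher ones, against 65.5% with the values as deposited. Of the probe sets above the floor on both arrays, 80.7% lay within 1.5-fold with the values as deposited.

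**Figure D1:**
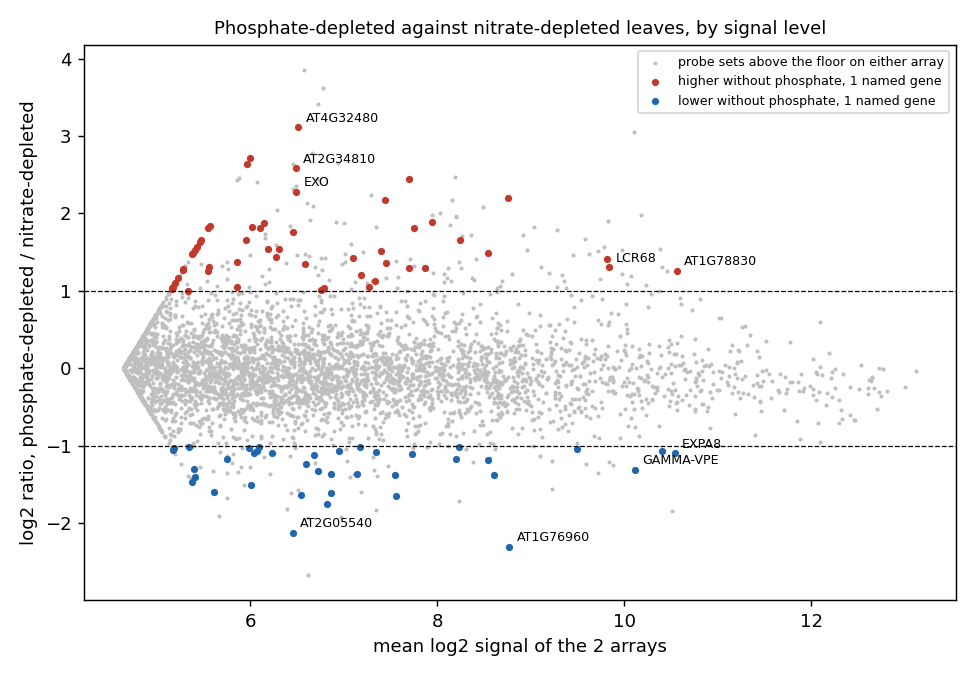
Log2 ratio of the phosphate-depleted to the nitrate-depleted array (vertical) against the mean log2 signal of both (horizontal), 1 point for each probe set above the floor on either array. Red and blue points are the 54 higher and 38 lower probe sets with 1 named gene, and dashed lines mark 2-fold; AT4G32480 lies highest of the named ones at 3.12 and AT1G76960 lowest at -2.30.

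Of the 51 higher genes, 10 are linked to pathogen defence, and of the 38 lower genes 1. This and the other role groups were formed after the values were seen, and how many of all named genes belong to each was not counted, so the counts only describe these members. Chitinases, which cut the chitin of fungal walls, made up 4 of them. For AT2G43590, of the chitinase family, the signals were 485.5 without phosphate and 89.0 without nitrate, with 289.7 on the potassium and 926.4 on the full-nutrient array. The nitrate array was the lowest of the series for this gene, and the ratio of phosphate to nitrate was 5.46-fold. Its second probe set read 124.7 and 42.8 on the phosphate and nitrate arrays, 2.91-fold. CHI, another chitinase gene, was at 620.8 without phosphate and 222.1 without nitrate (2.80-fold), and AT2G43620, a further family member, at 158.4 and 77.0 (2.06-fold). The class V chitinase gene ChiC was at 87.8 on the phosphate array and below the floor, at 15, on the nitrate array, at least 3.51-fold higher. Its signal was 245.7 without potassium and 3.6 with full nutrients, so the phosphate array was not the brightest for it.

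The remaining defence genes included a glucanase, a defensin and lectin-like genes. AT4G16260, of the glycosyl hydrolase family that holds the beta-glucanases, was at 402.5 without phosphate and 114.4 without nitrate, 3.52-fold higher. It was brighter still without potassium, at 1204.2, and at 291.8 with full nutrients, which leaves the nitrate array as the dim one. LCR68, which encodes a small cysteine-rich defensin, showed the other pattern, with 1432.9 on the phosphate array and 578.5 on the nitrate, 535.8 on the potassium and 660.3 on the full-nutrient array. There the phosphate array alone was bright, 2.48-fold above the nitrate one. AT1G78830, a mannose-binding lectin-like gene and the brightest of all higher genes, was at 2333.7 and 976.1 on the phosphate and nitrate arrays (2.39-fold), and its relative AT1G78860 at 60.6 on the phosphate array and below the floor on the nitrate one (at least 2.42-fold). AT2G27080, of the NDR1/HIN1-like membrane protein family, was at least 2.88-fold and the dirigent-like gene AT1G22900 at least 2.24-fold higher. The single defence gene on the lower side was AT1G61190, of the NB-LRR resistance protein family, at 111.9 without phosphate and 237.1 without nitrate (2.12-fold lower).

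Genes of oxidoreductases and glucosidases numbered 11 among the higher genes and 1 among the lower. AT2G34810, a berberine bridge enzyme-like oxidase gene, was at 219.0 without phosphate and 36.6 without nitrate, 5.98-fold higher, with 275.8 on the potassium and 50.5 on the full-nutrient array. AT4G20820, of the same family, was at 224.3 and 83.9 on the phosphate and nitrate arrays (2.67-fold) on 1 probe set. The other 3 probe sets of AT4G20820 lay below the floor on both arrays. For the first gene phosphate and potassium removal read alike and high, while for the second the nitrate array alone was low. BGLU15, a beta-glucosidase known to act on flavonol glucosides, was at 155.2 without phosphate and at 5.2, below the floor, without nitrate, which makes it at least 6.21-fold higher. Its signal was 40.5 without potassium and 14.4 with full nutrients, so the phosphate array was the bright one. Its neighbour BGLU28, a beta-glucosidase known from sulphur-limited plants, was at 77.4 without phosphate and 3.4 without nitrate (at least 3.1-fold), at 633.8 without potassium and at 40.8 with full nutrients.

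Class III peroxidases, secreted enzymes of the cell wall, stood on both sides. AT5G64120, a peroxidase gene, had a signal of 367.9 without phosphate and 81.5 without nitrate, 4.51-fold higher, near its level of 387.5 without potassium, with 136.1 with full nutrients. AT4G37520 was at 239.1 and 109.2 on the phosphate and nitrate arrays (2.19-fold higher). AT2G37130, in contrast, was at 241.5 without phosphate and 629.0 without nitrate, 2.6-fold lower, with 408 without potassium and 487 with full nutrients, which makes the nitrate array the brightest of the series for it.

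Both glutaredoxin family genes that differed, of small thiol redox proteins, were higher without phosphate. Glutaredoxin genes below 2-fold were not counted. AT2G30540 was at 161.2 on the phosphate and 47.8 on the nitrate array, 3.37-fold, with 77.9 and 79.7 on the potassium and full-nutrient arrays. AT1G03020 was at 89.5 without phosphate and 23.1 without nitrate, at least 3.58-fold higher, below the floor without potassium too and at 37.3 with full nutrients. For these genes the phosphate array lay at least 2-fold above each of the other arrays. With a floor of 50, however, the log2 ratio of AT1G03020 between phosphate and nitrate was 0.84, short of 2-fold. AT1G75280, an isoflavone reductase-like gene, was at 538.4 and 170.9 without phosphate and nitrate, 3.15-fold higher, against 969.7 without potassium and 555.0 with full nutrients, so here the nitrate array was dim. The alcohol dehydrogenase-like gene AT1G09500 was at 121.6 and 34.3 without phosphate and nitrate (3.55-fold), far below its 610.9 without potassium, and at 29.7 with full nutrients. AT2G38240, of the 2-oxoglutarate-dependent dioxygenases, was at 53.8 on the phosphate array and below the floor on the nitrate array.

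Among named genes above the floor on both arrays, the largest ratio belonged to a gene of the DUF506 family, plant proteins without a known biochemical function. AT4G32480 had a signal of 268.9 without phosphate and 31.0 without nitrate, 8.67-fold higher, with 100.4 on the potassium and 94.5 on the full-nutrient array. Both depletions stood apart for this gene, on opposite sides of the other arrays. The bounds of AT4G36850 and BGLU15 cannot be ranked against it, and with a floor of 10 their log2 ratios were 4.03 and 3.96, against 3.12 for AT4G32480. AT2G20670, of the same family, was at 286.3 without phosphate and 99.8 without nitrate (2.87-fold), with 59.1 without potassium and 141.5 with full nutrients. Of the S40 family of senescence regulators, AT2G28400 was higher, at 324.8 and 132.4 on the phosphate and nitrate arrays, and AT1G11700 lower, at 66.3 and 202.9 (3.06-fold lower), with 74.7 without potassium and 110.9 with full nutrients. Members of this family therefore stood on both sides.

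Genes of transport and lipids were spread over both sides, 7 higher and 4 lower. AT4G36850, of the PQ-loop repeat membrane proteins, was at 163.5 without phosphate and 5.7 without nitrate, at least 6.54-fold higher, and near 30 on the potassium (29.8) and full-nutrient (30.4) arrays. AT4G17790, of the SNARE-associated family, was at 473.9 and 128.4 without phosphate and nitrate (3.69-fold), with 207.9 without potassium and 163.2 with full nutrients. AT5G65687, a major facilitator superfamily gene, was at 110.3 and 35 without phosphate and nitrate (3.15-fold), with 43 without potassium and 39.8 with full nutrients. For these genes, too, the phosphate array was at least 2-fold above each other array. ZIP9, of the ZIP metal transporters, was at 74.1 and 29.9, close to the floor on the nitrate side.

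Among lipid genes, CCT1 encodes the enzyme that makes the activated choline for phosphatidylcholine. Its probe sets read 153.1 and 528.5 on the phosphate array and 60.3 and 272.3 on the nitrate array, 2.54-fold and 1.94-fold higher. AT4G36640, of the Sec14-like lipid transfer proteins, was 2.00-fold higher and the lipid transfer protein gene AT4G12545 at least 2.78-fold. On the lower side, CP5, of a START-domain lipid-binding protein, was at 933.0 without phosphate and 1964.4 without nitrate (2.11-fold lower), while its second probe set read 1049.6 and 1385.9, 1.32-fold lower. The GDSL lipase gene ARAB-1 was 2.17-fold lower, the sugar transporter family gene AT1G08900 2.02-fold and AT1G61740, of the sulphite exporter family, 2.01-fold.

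Growth and cell wall genes did not move one way, with 6 higher and 4 lower. EXO, a gene of brassinosteroid-dependent leaf growth, was at 197.8 without phosphate and 40.8 without nitrate, 4.85-fold higher, with 205.6 without potassium and 19.3, below the floor, with full nutrients. GH3.3, whose enzyme couples auxin to amino acids, was at 128.4 and 36.6 on the phosphate and nitrate arrays (3.51-fold), with 120.2 without potassium and 39.7 with full nutrients. IAA20, of the auxin response repressors, was at 60.2 without phosphate and below the floor without nitrate on 1 probe set. The other probe sets of IAA20 lay below the floor on both arrays. TBL37, of the family that acetylates wall polymers, was at 126.7 and 47.0 (2.7-fold). EXO, GH3.3 and TBL37 had like levels without phosphate and without potassium, and low ones on the other arrays. The hydroxyproline-rich glycoprotein gene AT2G22510 and the pectin methylesterase gene ATPMEPCRB were bounds of at least 2.82-fold and 2.08-fold. On its other probe set ATPMEPCRB was at 37.8 without phosphate and below the floor without nitrate, at least 1.51-fold higher.

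The lower wall genes were mostly those of wall loosening. EXPA8, an alpha-expansin gene, was at 1016.7 without phosphate and 2172.0 without nitrate, 2.14-fold lower, with 509.9 without potassium and 1225.2 with full nutrients. EXPB1, a beta-expansin gene, was at 26.8 and 66.3 on the phosphate and nitrate arrays (2.47-fold), and its other probe set lay below the floor on both. AT4G24780, of the pectate lyases, was at 247.7 and 561.2 (2.27-fold), with 1.69-fold on its other probe set. For each of these 3 genes the nitrate array was the brightest of the series. EXPA8 fell short of 2-fold under loess centring, at a log2 ratio of -0.97, and EXPB1 with a floor of 50, at -0.41. EXPA4, another alpha-expansin gene, was at 111.9 without phosphate and 98.9 without nitrate, 1.13-fold higher. AT2G05540, a glycine-rich protein gene, was at 42.1 without phosphate and 183.3 without nitrate, 4.35-fold lower. In that gene the phosphate array was the dim one, since the potassium array read 156.9 and the full-nutrient array 120.9.

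Regulatory and signalling genes numbered 6 higher and 7 lower. SAL2, of an inositol polyphosphate phosphatase, was at 135.3 without phosphate and 36.8 without nitrate (3.68-fold higher), with 52.2 without potassium and 194.3 with full nutrients. STZ, a C2H2 zinc finger repressor of stress responses, was at 365.4 and 149.2 on the phosphate and nitrate arrays on one probe set (2.45-fold) and at 220.7 and 95.6 on the other (2.31-fold). AT2G28710, also a C2H2 zinc finger gene, was at 74.2 without phosphate and 23.8 without nitrate, at least 2.97-fold higher, with 75.6 without potassium and 24.9 with full nutrients. Also higher were the receptor-like kinase gene AT3G09010 2.39-fold, the RING finger gene AT2G42360 2.08-fold and the protein phosphatase gene AT1G34750 at least 2.06-fold.

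On the lower side, AT4G16830, an RNA-binding protein gene, was at 72.4 without phosphate and 187.2 without nitrate (2.59-fold), with 90.8 without potassium and 122.4 with full nutrients. AT2G32070, of the CAF1-type deadenylases that shorten poly(A) tails, was at 62.9 and 148.3 (2.36-fold). The BSD domain gene AT5G65910 was 2.13-fold, the Di19 family gene AT4G02200 2.09-fold, the calcium-binding protein-related gene AT1G62480 2.09-fold, the TRAF-like gene AT2G32880 2.03-fold and the F-box gene AT2G32560 2.02-fold lower. The second probe set of AT4G02200 read 72.5 and 74.1 on the phosphate and nitrate arrays, 1.02-fold lower. That of AT2G32560 read 64.3 and 95.3, 1.48-fold lower.

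**Figure D2:**
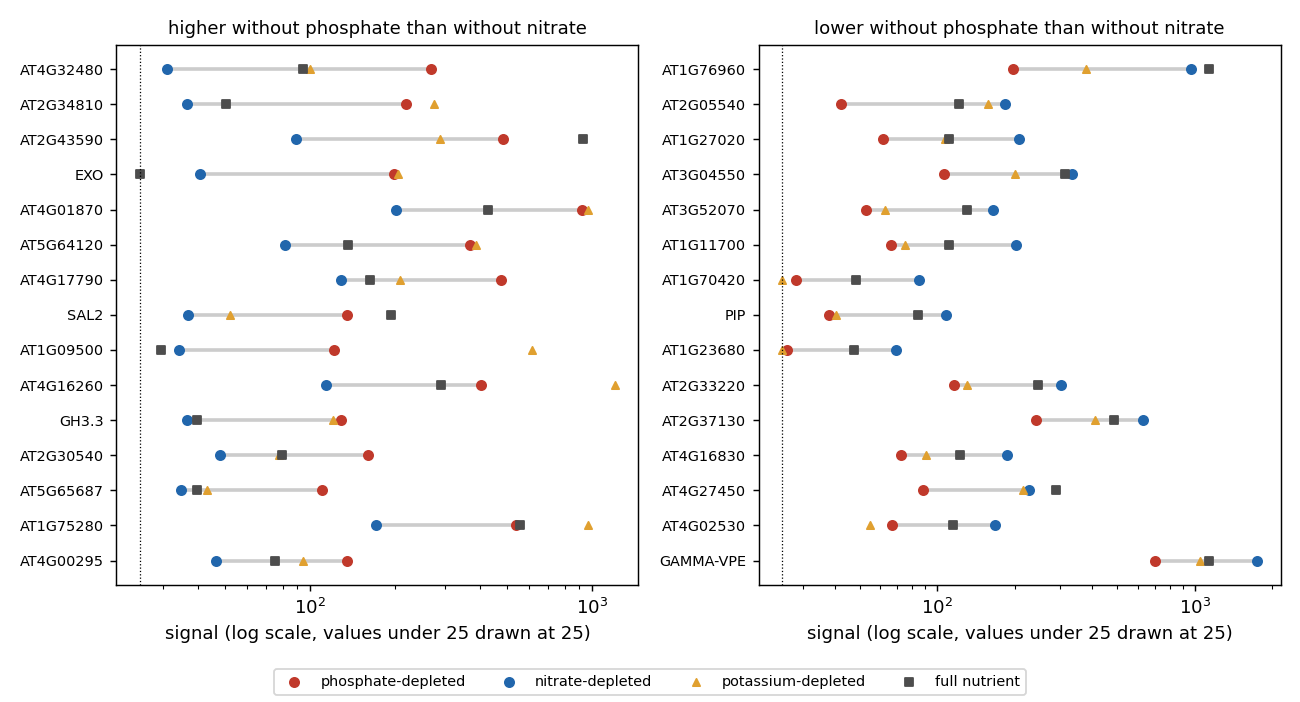
Signal of the 15 named genes with the widest ratio in each direction that were above the floor on both arrays; the horizontal axis is logarithmic, and the dotted line is the floor of 25. Red, blue, yellow and grey marks are the phosphate-depleted, nitrate-depleted, potassium-depleted and full-nutrient arrays, 1 array each; AT4G32480 spans 268.9 to 31.0 and AT1G76960 196.6 to 970.0 between the phosphate and nitrate arrays.

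A mixed set of 7 lower genes acts in organelles, protein folding or proteolysis, and no higher gene was given such a role. Scaled to the control transcripts, AT3G04550 and AT4G02450 alone of the 7 stayed past 2-fold, at log2 ratios of -1.09 and -1.18. AT3G04550, of a factor that assembles Rubisco, was at 106.2 without phosphate and 333.8 without nitrate, 3.14-fold lower, with 200 without potassium and 313.0 with full nutrients. AT4G02530, a thylakoid lumen protein gene, was at 66.5 and 167.2 on the phosphate and nitrate arrays (2.51-fold), with 55 without potassium and 115.6 with full nutrients. AT2G33220, of a subunit of mitochondrial complex I, was at 116.0 without phosphate and 302.8 without nitrate (2.61-fold), with 130.1 without potassium and 246.7 with full nutrients. The nitrate array was the brightest of the series for each of these. GAMMA-VPE, of the vacuolar processing enzyme that activates vacuolar proteins, was at 702.1 without phosphate and 1740.7 without nitrate (2.48-fold), between 1047.8 and 1133.1 on the other arrays.

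ATG8E, a gene of the ubiquitin-like autophagy protein that marks autophagosomes, was at 501.2 without phosphate and 1031.1 without nitrate (2.06-fold lower). Of the other ATG8 genes, ATG8C was at 72.3 and 126.9, while ATG8B, at 29.9 and 29.5, APG8A, at 172.5 and 142.3, ATG8F, at 1246.9 and 1171.3, and ATG8D, at 135.7 and 109.3, were slightly higher without phosphate, below 2-fold. PIP, a proline iminopeptidase gene, was at 38.1 and 108.0 on the phosphate and nitrate arrays (2.83-fold), with 40.5 without potassium and 84.5 with full nutrients. The co-chaperone gene AT4G02450 was at 17.9, below the floor, without phosphate and at 68.9 without nitrate (at least 2.76-fold), with 13.2 without potassium and 30.2 with full nutrients. Both aluminium-induced YGL/LRDR family genes that differed, a family raised in carbon-starved and dark-kept plants, were lower. Genes of that family below 2-fold were not counted. AT4G27450 was at 88.3 without phosphate and 226.9 without nitrate (2.57-fold), with 214.8 and 288.5 on the potassium and full-nutrient arrays, and AT3G15450 at 144.0 and 310.6 (2.16-fold).

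The other 19 genes have no role given here. The lowest of all named genes was AT1G76960, at 196.6 without phosphate and 970.0 without nitrate, 4.93-fold lower, with 377.2 without potassium and 1133.4 with full nutrients. Of the lower genes without a role, AT1G27020 came next, at 61.5 without phosphate and 207.1 without nitrate (3.37-fold), with 107.3 without potassium and 111.5 with full nutrients. AT3G52070 was at 52.8 and 164.8 on the phosphate and nitrate arrays (3.12-fold), with 62.9 without potassium and 130.1 with full nutrients. For both genes the nitrate array was the brightest of the series. AT1G70420 was at 28.2 and 85.1 on the phosphate and nitrate arrays (3.02-fold), with 21.6 without potassium and 48.5 with full nutrients. AT1G23680 was at 26.1 and 69.0 (2.64-fold), with 18.3 without potassium and 47.5 with full nutrients. The values of AT1G70420 and AT1G23680 on the phosphate array lay just above the floor. AT2G46550, AT4G32340, AT2G17340, AT1G62422, AT4G17080 and AT1G79160 were between 2.03-fold and 2.25-fold lower. AT1G62422 was a bound, at 17.2 without phosphate and 51.9 without nitrate, with 36.1 without potassium and 49.1 with full nutrients.

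On the higher side without a role, AT4G01870 was at 925.5 without phosphate and 201.9 without nitrate, 4.58-fold, with 971.0 and 428.0 on the potassium and full-nutrient arrays. AT4G00295 was at 135.3 and 46.4 on the phosphate and nitrate arrays (2.92-fold), with 94.2 without potassium and 75.4 with full nutrients, and AT1G65500 at 1469.2 and 553.0 (2.66-fold). AT2G37750, AT2G41380, AT1G49470, AT3G02030 and AT1G61900 were between 2.02-fold and 2.59-fold higher, AT3G02030 as a bound. Probe sets without a single named gene made up 132 of the 186 higher and 60 of the 98 lower ones. The widest of these above the floor on both arrays was at 383.1 without phosphate and 31.3 without nitrate on the higher side (12.2-fold), and at 38.9 and 247.5 on the lower side (6.36-fold). The brightest of the 3 widest higher ones was at 3171.5 and 382.1 on the phosphate and nitrate arrays.

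**Figure D3:**
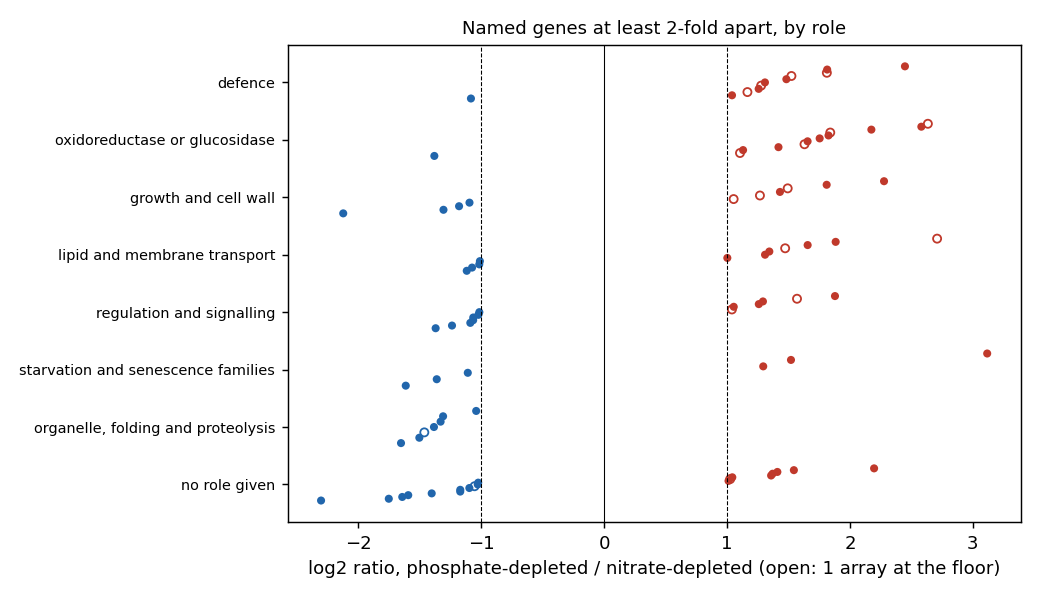
Log2 ratio of the phosphate-depleted to the nitrate-depleted array for the 89 named genes at least 2-fold apart, by role, with 1 point for the widest probe set of each gene. Open points have 1 array at the floor of 25 and are bounds, and dashed lines mark 2-fold; defence holds 10 higher genes and 1 lower gene, and the organelle, folding and proteolysis group 7 lower ones.

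The ratio alone does not tell which of the 2 arrays stood apart, so each gene was set beside the potassium and full-nutrient arrays. Of the 51 higher genes, 10 had the phosphate array at least 2-fold above each other array, namely AT4G32480, AT4G36850, BGLU15, AT4G17790, AT1G03020, AT2G30540, AT5G65687, AT2G20670, LCR68 and AT1G78860. In 7 the nitrate array lay at least 2-fold below each other array. These were AT4G32480 again, the chitinase genes AT2G43590 and AT2G43620, AT4G01870, AT4G16260, AT1G75280 and AT4G20820. The nitrate array had the lowest signal of the series, ties at the floor included, in 41 of the 51 genes, and the phosphate array the highest in 26. In 32 of the 51 genes the potassium array also lay at least 2-fold above the nitrate array, and in 8 the full-nutrient array did. The nitrate value that helped to choose these genes enters those counts, and the share over all named genes is not given here.

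Of the 38 lower genes, 34 had their highest signal of the series on the nitrate array and 25 their lowest on the phosphate array, ties at the floor included. AT2G05540 and AT4G27450 had the phosphate array at least 2-fold below each other array. AT4G02450, EXPB1 and AT2G32560 had the nitrate array at least 2-fold above each other array. In 23 of the 38 the potassium array was at least 2-fold below the nitrate array as well, and in 4 the full-nutrient array was. Since the genes were chosen for their distance between the 2 arrays, an outermost place of either array was set in part by that choice. The same holds for the counts of genes with another array at least 2-fold from the phosphate or nitrate array. Shares over all named genes are not given for any of these counts.

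**Figure D4:**
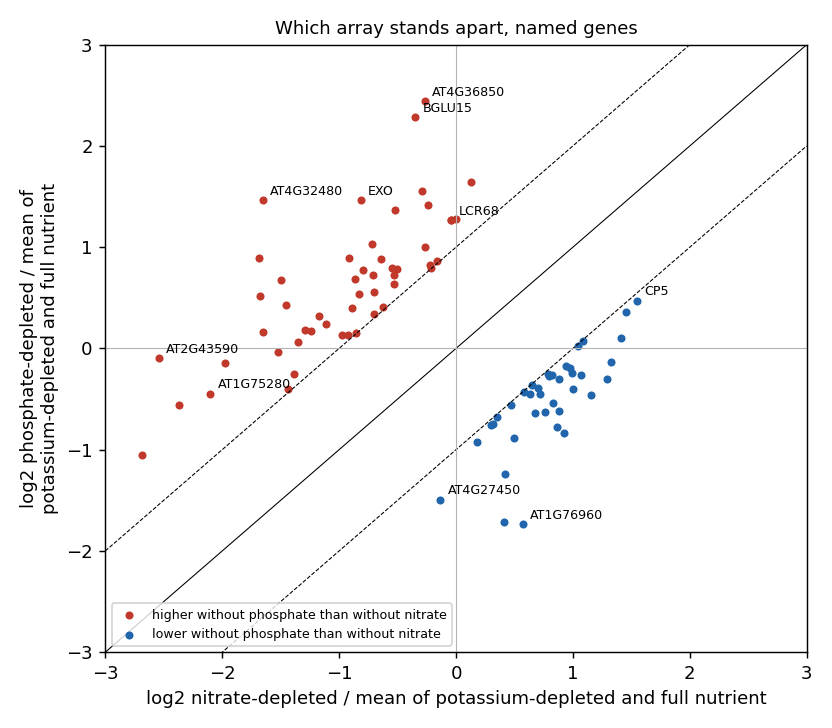
Log2 distance of the phosphate-depleted array (vertical) and of the nitrate-depleted array (horizontal) from the mean log2 signal of the potassium-depleted and full-nutrient arrays, 1 point for each of the 89 named genes, red for the 51 higher and blue for the 38 lower ones. The solid line marks equal levels without phosphate and without nitrate, the dashed lines 2-fold; AT2G43590 lies far to the left and AT4G36850 far up, by a low nitrate and a high phosphate array.

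Some of the genes lay beside each other in the genome. In the gene order of assembly TAIR10.1, 6 pairs had fewer than 5 protein-coding genes between them, and in all 6 both genes had the same direction. The chitinase genes CHI, AT2G43590 and AT2G43620 made up 3 of these pairs. BGLU15 and BGLU28 were direct neighbours, with 0 genes between them, and the lectin-like genes AT1G78830 and AT1G78860 had 2 between them. The sixth pair was AT1G62422 and AT1G62480, both lower. The other pairs are of related genes, and the 3 chitinase pairs share the same 3 genes. How often neighbouring named genes share a direction over the whole array was not counted, so these pairs are description only. Whether related neighbours share signal on these probe sets was not tested.

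Some genes had several probe sets, which read the same RNA on the same array and so are not replicates. Of the 89 genes, 12 had more than 1, and in 3 of them, AT2G43590, AT1G09500 and STZ, every probe set passed 2-fold. In the others at least 1 probe set was nearer to equal or lay at the floor, as for CP5 and IAA20. Over 69 genes with several probe sets above the floor on both arrays, the log2 ratios of a gene spread over a median of 0.25. The genes nearest to the 2-fold limit were close together. AT1G61900 and AT4G36640 lay just inside at 2.02-fold and 2.00-fold, and AT4G26060 and AAE15 just outside at 1.99-fold and 1.98-fold higher. On the lower side AT2G32560 and AT1G61740, at 2.02-fold and 2.01-fold, lay inside, and AT4G13840 and AT2G39400, both at 1.99-fold, outside.

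Gene lists placed these genes among others of the same pathway. Of 1652 named genes measured on either array, 50 (3.03%) were at least 2-fold higher and 34 (2.06%) lower as a mean over probe sets, with a median log2 ratio of -0.03. The defence list had 10 measured genes, of which 6 were at least 2-fold higher and none lower, with a median of 1.17; it was drawn up with results of these arrays known, so its count is no independent evidence. Its members below 2-fold were the osmotin gene OSM34 at 0.73, WRKY53 at 0.31 (below the floor without nitrate), the defensin gene LCR69 at 0.06 and the lectin gene AT3G15356 at -0.90. The auxin and brassinosteroid list had 7 measured genes, 3 higher and 1 lower, and a median of 0.27. In the senescence and autophagy list, 12 genes were measured and their median was 0.27, with ATG8E as the only one past 2-fold. That median was 0 with a floor of 50 and 0.74 scaled to the control transcripts. The 6 measured detoxification genes had a median of 0.24 with none past 2-fold.

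Photosynthesis and ribosomal protein genes were a little lower on the phosphate array as deposited. Of all 1652 measured named genes, 873 had a negative and 776 a positive log2 ratio. Of 11 measured photosynthesis genes 9 had a negative log2 ratio, with a median of -0.26, and this was -0.08 under quantile normalization, -0.05 under loess centring and 0.31 when scaled to the control transcripts. PORB, of chlorophyll synthesis, was at -0.58, PSBW at -0.47 and PRK, of the Calvin cycle, at 0.27. Of 34 measured cytosolic ribosomal protein genes 30 were negative, with a median of -0.23, which turned to 0.34 under that scaling. Neither list held a gene past 2-fold.

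The sulphate list was read because both solutions held added sulphate. Its 4 genes had a median of -0.24, or 0.32 scaled to the control transcripts, with the sulphurylase genes APS3 at -0.02 and APS4 at -0.46, the sulphite reductase gene SIR at 0.27 and the cystathionine beta-lyase gene CBL at -0.64. The cold and drought genes had a median of -0.06 over 4 genes, COR15B being at -0.20. The 5 measured reference genes, tubulins and an actin, had a median of -0.08, ranging from -0.43 for TUB5 to 0.69 for ACT11, which lay below the floor without nitrate. These last 2 medians turned positive under the scaling to control transcripts, to 0.42 and 0.48, and that of the cold and drought genes also under loess centring, to 0.05.

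**Figure D5:**
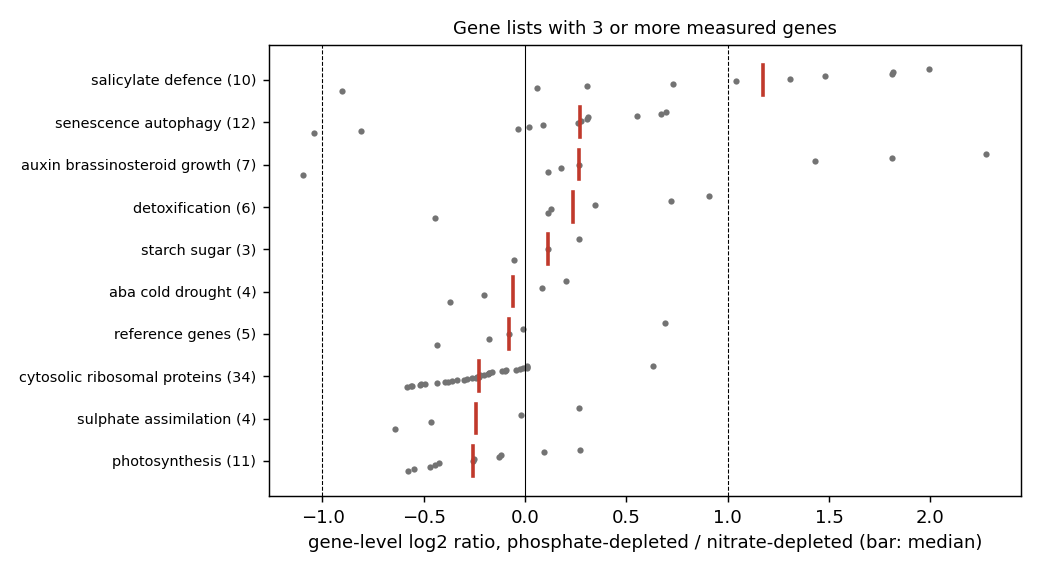
Gene-level log2 ratio of the phosphate-depleted to the nitrate-depleted array for the lists with 3 or more measured genes, with the number measured in brackets; grey points are genes, the red bar is the list median and dashed lines mark 2-fold. The defence list lies furthest to the right with a median of 1.17, and the photosynthesis list furthest to the left at -0.26.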

How the data were processed

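Total RNA of rosette leaves was biotin-labelled and read on single-colour Affymetrix arrays, 1 per group, per the labels. The authors deposited linear signal intensity values per probe set; the expression algorithm is not given in the sources used here, and the equal trimmed means show a common scaling. Here 50 control probe sets were left out, signals under 25 were set to 25 and log2 ratios of the phosphate to the nitrate array were taken, with Python 3.11.15, pandas 2.3.3 and statsmodels 0.14.6. The platform annotation named 1 gene for 3794 probe sets, several for 70 and none for 4383; 3784 matched assembly TAIR10.1. With 1 array per group no test was possible, and the number of arrays limits precision. Signals on all arrays (or a statement that one is below the floor) are given for up to 15 genes per direction by ratio and up to 6 bounds by signal; the other members are named with their ratio or both signals. Signals on all arrays for LCR68, AT2G20670 and EXPA8 were added after the values were seen. Roles are background knowledge, and the role groups were formed after the values were seen. The genes and the 22 lists (981 members) were chosen with earlier results of these data known. Alternatives were floors of 10 and 50, a pseudocount of 25, median centring, quantile normalization, loess, plain probe set endings, probe sets above the floor on both arrays and, chosen after seeing the data, scaling to the control transcripts. The ratio step was tested on simulated data. Lists with no gene named or measured, such as potassium transport, heat shock and anthocyanin genes, gave no value; the clock list (GI, -0.59), the touch list (STZ, 1.25), the calcium list (median 0.38 over 2 genes), the jasmonate list (1.17 over 2) and the starch list (0.11 over 3) had at most 3 genes.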

Additional observations from a re-analysis of the deposited data

How the results depend on the processing

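With 1 array per group, nothing here has a replicate error, and dim probe sets limit the ratios. No paired analysis was possible because each group has 1 array. The count of higher probe sets was 276 with a floor of 10 and 115 with plain probe set endings only, in place of 186. The count of lower ones was 152 with a floor of 10, 64 with a floor of 50, 52 with a pseudocount and 62 with plain endings, in place of 98. The changes with the floor and the plain endings follow from how many probe sets can pass. Scaling to the control transcripts, added after seeing the data, gave 557 higher and 21 lower probe sets, and 8 of the 38 lower named genes then stayed 2-fold lower. No named gene changed direction in the settings that give a ratio per gene, but this could hardly have come out otherwise. A floor or a pseudocount cannot reverse a ratio, and all these genes had been chosen at 2-fold or more. The settings with a ratio per gene cover all 89 genes, except plain endings, which leave 69. Counting only probe sets above the floor on both arrays gives counts alone. With both that scaling and the plain endings set aside, 43 of the 89 named genes stayed past 2-fold under each of the other settings that give a gene its own ratio.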

Other observations

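The GAPDH control probe sets, end and middle alike, were dimmer on both of these arrays than on the other 2. The 3′ GAPDH control had a signal of 475.4 without phosphate and 401.6 without nitrate, against 2383.7 without potassium and 2063.5 with full nutrients. The 5′ control followed, at 376.2 and 274.9 on the phosphate and nitrate arrays and 1180.7 and 874.4 on the potassium and full-nutrient arrays. The middle control followed too, at 1707.5, 1003.2, 3486.6 and 2966.9 in the same order of arrays. The actin control did not, at 2310.1, 1997.5, 2069.2 and 2483.7 in the same order of arrays.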
